A study of Homo sapiens with 5 samples.

Results

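MDA-MB-231 cells in which SET had been silenced were compared directly with MDA-MB-231 cells in which CIP2A had been silenced, with no control library in the ratio. MDA-MB-231 is a widely used cell line from a human breast cancer that lacks hormone receptors and HER2 amplification. Each silencing was represented by 1 library: siSET, from cells given an siRNA against SET for 48 hours, and siCIP2A, from cells given an siRNA against CIP2A. No time is named in the treatment label of siCIP2A, and the treatment protocol gives 48 hours for both siRNAs. The other libraries of the series, used here only as levels beside the comparison, were a control siRNA at 48 hours (siNT), PBS at 12 hours (PBS) and OP449 at 1 µM for 12 hours (OP449). Of 10596 genes in the table, the 6098 whose mean over siSET and siCIP2A was at least 50 scaled counts entered the comparison. A scaled count is the deposited value of a transcript, already put by the authors on a scale common to the libraries, and where a gene had several transcripts the one with the highest mean of the 5 libraries stood for it.

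PP2A is a serine and threonine phosphatase made of a scaffold, a catalytic and a regulatory subunit, and it removes phosphates from MYC, AKT, ERK pathway kinases and many other proteins. SET and CIP2A are proteins that bind and restrain PP2A, and both are often raised in breast cancer. SET is also a histone chaperone and a subunit of complexes that mask histone tails, whereas CIP2A is known for stabilising MYC and for roles in mitosis. Silencing either protein is therefore a way to raise PP2A activity, by routes that need not have the same targets. The difference siSET minus siCIP2A shows where the cells given these siRNAs had different RNA levels, and cancels what both siRNAs did alike.

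There was no replicate of either library, so no difference below has a replicate check and none has a p-value for the conditions. The recovered reads over the gene table numbered 3641329 in siSET and 5602224 in siCIP2A, so siSET was the shallower by 1.54 times. A read was worth 1.71 scaled counts in siSET and 1.10 in siCIP2A, and a value of 0 is compatible with at most 3 reads, or 5.13 and 3.31 scaled counts. Intervals in brackets are 95% exact Clopper-Pearson intervals of the log2 ratio of the libraries. They cover counting error only, since PCR reads without molecular identifiers are not independent molecules, and they compare these libraries, not the conditions. The table covers chromosomes 1 and 10 to 19 and the part of chromosome 2 up to position 166545916 on hg19. SET, CIP2A and MYC were not analysed here, so the extent of either silencing was not checked.

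The mesenchymal markers of the line differed little between the libraries, and the epithelial markers among its identity markers past the floor were higher in siSET. VIM, CD44 and AXL, genes of the mesenchymal state of this line, stood at 16658, 13820 and 18128 scaled counts in siSET and at 18421, 14599 and 16570 in siCIP2A. The keratins KRT18 (2965 and 2032, difference 0.54), KRT8 (4793 and 3436, 0.48) and KRT19 (5998 and 4706, 0.35) were higher in siSET. So were the luminal factor GATA3 (239 and 165, 0.54) and the adhesion molecule EPCAM (190 and 139, 0.45). Of the 9 identity markers past the floor, 7 were higher and 2 lower in siSET, all with intervals that exclude 0, and their median was 0.35. The wider list of 23 keratin and junction genes past the floor was split, with 12 higher, 11 lower and a median of 0.04. The part of the identity marker shift in the results below was not tested. PGR and FOXA1, which luminal breast cells also express, were at 0 in both. Of 17 markers of blood, vessel, fat and connective tissue cells in the table, only CD68 passed the floor, at 2202 scaled counts in siSET and 2401 in siCIP2A, and 14 were at 0 in siSET and 12 in siCIP2A. CD68 is a lysosomal protein as well as a macrophage marker. In a bulk library, fewer cells that express a gene and less of its RNA per cell cannot be told apart.

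The libraries differed at least 2-fold, on the log2(value + 1) scale used throughout, for 102 genes, which is 1.67% of those compared. Of these, 50 (0.820%) were higher in siSET and 52 (0.853%) were lower. The median difference over all 6098 genes was -0.01 (log2). By any amount, 48.6% of genes were higher in siSET and 51.4% lower, and the counting interval lay above 0 for 20.1% and below 0 for 21.4%. All 102 intervals excluded equality, but they rest on the same reads that put these genes past 2-fold, so this is no separate check. The same rule applied to siNT against PBS, which differ in time as well as in treatment, gave 24 of 6076 genes (0.395%), 15 of them higher in siNT (0.247%) and 9 lower (0.148%).

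The genes higher in siSET were led by lipid genes, ID3 and a group of secreted and cell surface proteins. Those lower in siSET were led by ANGPTL4, IL1A and the membrane proteins MYOF and AHNAK2. The threshold fell between NEDD1 at 1.00 and PER3 at 0.99 on the higher side, and between C2orf56 at -1.04 and APAF1 at -0.99 on the lower side. A gene can pass the floor through its higher library alone: this was so for 13 of the 50 higher and 13 of the 52 lower genes, whose other library was under 50 scaled counts. Of the 102 genes, 31 had more than 1 transcript past the floor, and for all 31 these pointed the same way. Transcripts of a gene can share reads, so this agreement is not independent support. The genes were spread over the chromosomes of the table, at 0.85% of the genes compared on chromosome 14 and up to 2.79% on chromosome 13.

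**Figure D1:**
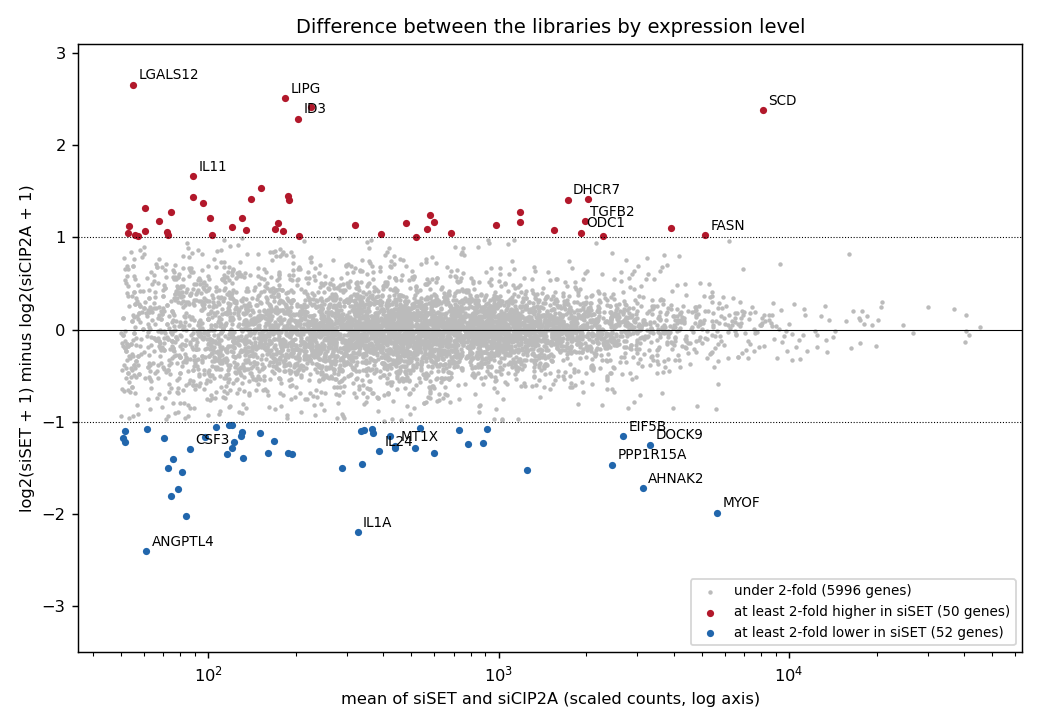
Each point is 1 of 6098 genes, placed by its mean over siSET and siCIP2A in scaled counts (log axis) and by log2(siSET + 1) minus log2(siCIP2A + 1). Dotted lines mark 2-fold; 50 genes lie at or above the upper line and 52 at or below the lower one, and SCD (mean 8102) and MYOF are past 2-fold toward the right of the plot.

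The control siRNA library places these differences, although it is not in the ratio. For 39 of the 50 genes higher in siSET, siNT lay between the libraries, nearer siSET for 29 and nearer siCIP2A for 10. For 42 of the 52 lower genes it also lay between, nearer siCIP2A for 32 and nearer siSET for 10. In each direction siNT was thus more often nearer the library with the higher level of the gene. By the 2-fold rule siCIP2A differed from siNT for 16 of the 50 higher genes and siSET for 4. Of the 52 lower genes, siSET differed from siNT for 22 and siCIP2A for 9, with 2 of these in both counts. For 30 of the higher and 23 of the lower genes neither library was 2-fold from siNT. One library, siNT, fixes all of these counts. The genes were chosen because siSET and siCIP2A lay far apart, which by itself makes room for siNT between them. The share of all genes with siNT between was not counted.

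**Figure D2:**
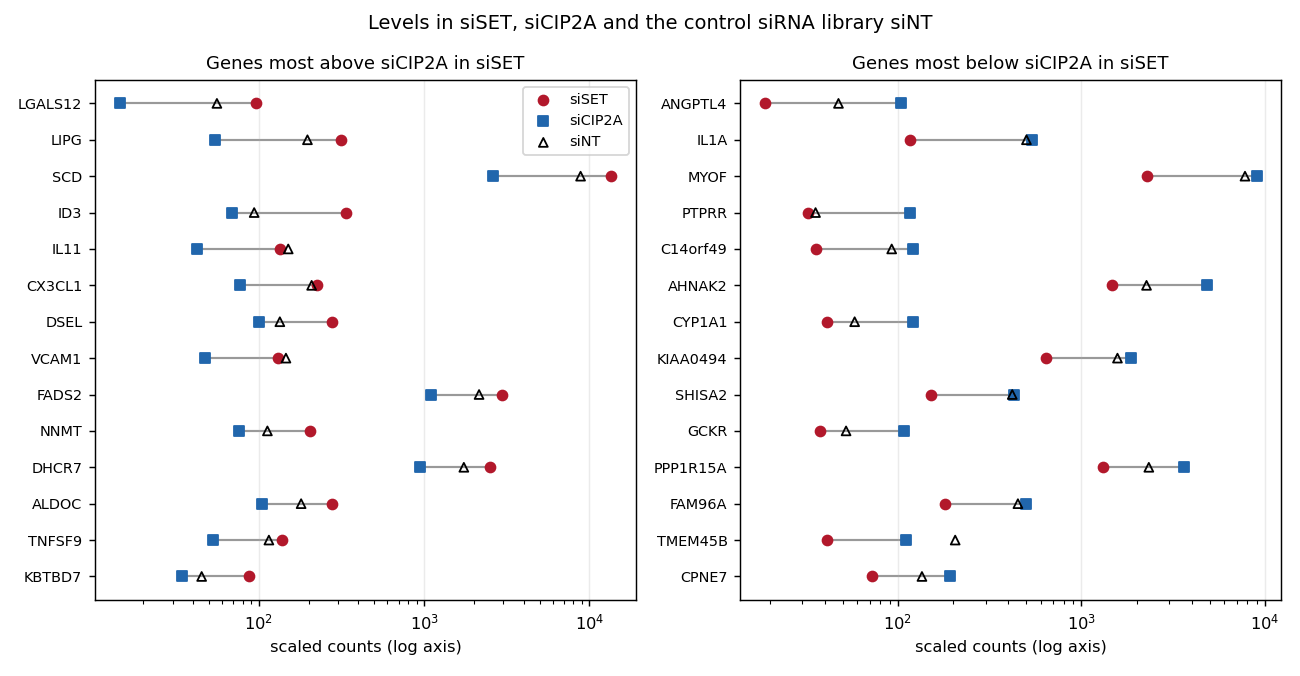
Levels in scaled counts (log axis) of 14 of the 15 genes with the highest and 14 of the 15 with the lowest difference, in siSET (circles), siCIP2A (squares) and siNT (open triangles), 1 library each. For MYOF, IL1A and SHISA2 the siNT symbol lies close to siCIP2A, and for CX3CL1, IL11 and VCAM1 close to siSET.

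Sterol and fatty acid synthesis genes were mostly higher in siSET. Sterol and fatty acid genes are switched on together by the SREBP transcription factors when membrane sterol is low. Of 17 genes of sterol synthesis and uptake in the table, 16 passed the floor, of which 14 were higher in siSET, 12 with an interval above 0, and none lower with an interval below 0. Their median difference was 0.74, the highest of the 42 lists with at least 3 genes past the floor, against -0.01 over all genes. Lists and members were chosen with earlier results of these data known, so this rank is no independent support. Of all genes past the floor, 48.6% were higher and 20.1% had an interval above 0. Of 13 fatty acid synthesis genes, 11 were higher, 8 with an interval above 0, and their median was 0.35, as was that of the identity markers above. In both the sterol and the fatty acid list 4 genes were at least 2-fold higher and none was 2-fold lower.

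SCD encodes the desaturase that makes oleic acid, and lies at chr10:102106772-102124587 on hg19. It stood at 13596 scaled counts in siSET and 2607 in siCIP2A, with 8853 in siNT, 14804 in PBS and 4782 in OP449. siSET was close to PBS, and siCIP2A was the lowest of the 5. The difference was 2.38 [2.32, 2.45], a 5.21-fold higher level in siSET. FADS2, the rate-limiting desaturase for polyunsaturated fatty acids, stood at 2954 in siSET and 1102 in siCIP2A, 2.68-fold higher. FADS1, its neighbour on chromosome 11, stood at 3069 and 1515, and FASN, the fatty acid synthase, at 6902 and 3389. Both were just past 2-fold, and under the scaling to equal upper quartiles both fell just below it. FADS3, the next gene of that cluster, was not higher (518 and 635, difference -0.29). SREBF1, which encodes SREBP1, stood at 3130 in siSET, 1763 in siCIP2A and 2931 in siNT, a difference of 0.83.

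Enzymes of the sterol pathway were higher in siSET as well. DHCR7, which catalyses a final step of cholesterol synthesis, stood at 2510 scaled counts in siSET, 943 in siCIP2A, 1740 in siNT, 2085 in PBS and 1503 in OP449. siSET was the highest of the 5 libraries and siCIP2A the lowest. The difference was 1.41 [1.29, 1.54], 2.66-fold higher in siSET. IDI1, the isopentenyl diphosphate isomerase, was 2.42-fold higher, at 1682 against 695. TM7SF2, a sterol reductase, was 2.22-fold higher, at 239 against 107. LPIN1, a phosphatidate phosphatase, reached 0.97, at 1500.2 in siSET, 763 in siCIP2A and 1109 in siNT. GGPS1 (-0.20) and NPC1 (-0.10), which act in protein prenylation and in the release of sterol from lysosomes, had intervals that include 0.

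**Figure D3:**
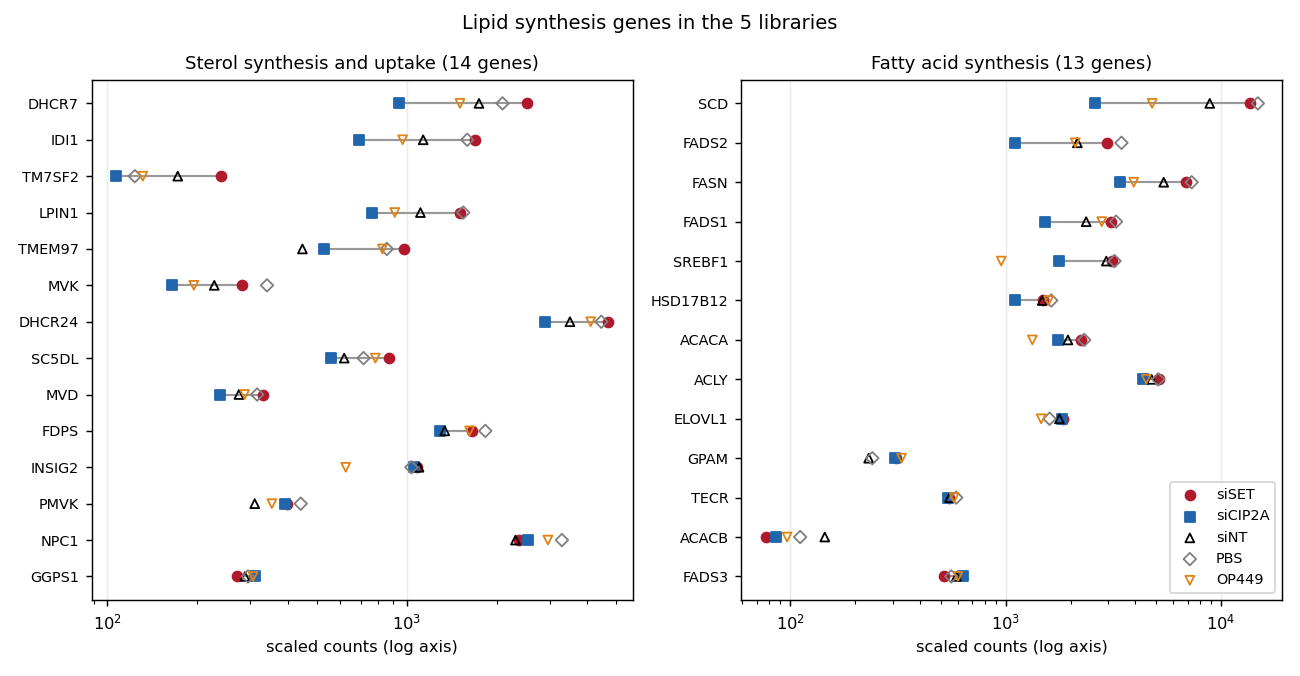
Scaled counts (log axis) of 14 sterol and 13 fatty acid genes past the floor in the 5 libraries, 1 symbol per library, ordered by the difference between siSET (circles) and siCIP2A (squares). In the upper rows siCIP2A is at or near the left end and siSET at or near the right, with siNT between, and in the lower rows the symbols come together.

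The promoters of SCD and DHCR7 are shown because both genes lie far apart between the libraries and both hold the CCAAT box, the letters bound by NF-Y, a known partner of SREBP. The 250 bases before the RefSeq start on GRCh38.p14 are chr10:100346983-100347232 on the plus strand for SCD and chr11:71448394-71448643 on the minus strand for DHCR7. Capitals mark CCAAT on either strand, found 2 times in each.
SCD: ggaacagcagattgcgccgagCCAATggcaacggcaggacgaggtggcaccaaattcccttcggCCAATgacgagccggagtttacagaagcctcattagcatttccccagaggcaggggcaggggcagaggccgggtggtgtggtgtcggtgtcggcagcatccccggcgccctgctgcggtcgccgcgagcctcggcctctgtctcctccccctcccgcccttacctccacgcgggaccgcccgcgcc
DHCR7: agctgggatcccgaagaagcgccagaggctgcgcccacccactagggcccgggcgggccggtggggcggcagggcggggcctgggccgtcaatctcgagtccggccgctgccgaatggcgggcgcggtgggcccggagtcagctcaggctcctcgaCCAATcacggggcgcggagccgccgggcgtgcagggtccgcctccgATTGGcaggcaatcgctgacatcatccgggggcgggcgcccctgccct
Of 13 sterol genes with a RefSeq promoter, 9 had CCAAT in this window, as did 7 of 11 fatty acid genes, against 37% of all genes in the promoter table and 43.5% of those past the floor with a promoter. The share was as high in lists that were mostly lower in siSET, at 5 of 7 metallothionein and zinc genes and 8 of 12 AP-1 and immediate early genes. Among the genes at least 2-fold higher it was 17 of 40 (42.5%), and among those lower 14 of 42 (33.3%). The letters TCACNCCAC of the sterol response element were found in none of these 13 and 11 genes, in 1.09% of all and in 1.25% of those past the floor. They were found in 3 of 40 genes at least 2-fold higher in siSET (7.5%), which were ALDOC, ASB2 and RAB4B, named after the matches were seen, and in 1 of 42 lower genes. A match is a description of the letters and no more, and the table reads only this window.

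Lipases and their regulators were split. Of 13 genes of lipolysis and fat breakdown, 6 were higher and 7 lower, with a median of -0.05, and the list held genes near both ends of the whole comparison. LIPG, endothelial lipase, at chr18:47088427-47119276, stood at 313 in siSET, 54.1 in siCIP2A, 197 in siNT, 250.5 in PBS and 108 in OP449, a difference of 2.51 [2.07, 3.02]. ANGPTL4, a secreted inhibitor of lipoprotein lipase, at chr19:8429011-8439257, stood at 18.8 in siSET and 104 in siCIP2A, with 47.4 in siNT, 18.1 in PBS and 165 in OP449. Its difference of -2.40 [-3.51, -1.56] was the lowest of all genes and rests on 11 reads in siSET against 94. LIPA, the lysosomal acid lipase, was 1.56-fold higher. LGALS12, a galectin of lipid droplets, had the highest difference of all, 2.66 [1.85, 3.73], from 95.8 scaled counts in siSET and 14.4 in siCIP2A, which are 56 and 13 reads.

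Inflammatory genes went both ways. These genes encode cytokines and their feedback regulators, many under NF-kB, and MDA-MB-231 cells express several without stimulation. Of 25 in the table, 20 passed the floor, 8 of them higher and 12 lower, with a median of -0.15. The 2-fold rule was met by 5 lower and 2 higher genes. The cytokines of the IL-1 group, IL24 and CSF3 were lower in siSET, whereas IL11 and the adhesion molecule VCAM1 were higher.

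IL1A encodes interleukin-1 alpha, a cytokine that acts from the cell surface and after release from damaged cells, and lies at chr2:113531493-113542971. It stood at 116 scaled counts in siSET and 538 in siCIP2A, with 501 in siNT, 163 in PBS and 251 in OP449. siCIP2A was level with siNT, while siSET and PBS were the lowest. The difference was -2.20 [-2.60, -1.84], 4.59-fold lower in siSET. Its neighbours IL1B and IL1RN, named after their values were seen, stood at 82.1 and 30.8 in siSET, at 179 and 72.9 in siCIP2A and at 175 and 30.8 in siNT. The receptor gene IL1R1 was lower by less, -0.49. The controls siNT and PBS differ for IL1A and IL1B as well, which the ratio does not use.

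IL24, a cytokine of the interleukin-10 family, stood at 221 in siSET, 552 in siCIP2A and 1074 in siNT. CSF3, the granulocyte colony-stimulating factor, stood at 49.6, 124 and 319. For both genes siNT was the highest of these libraries, siCIP2A next and siSET the lowest. IL11, which drives bone breakdown in metastasis models, stood at 135 in siSET, 42.0 in siCIP2A, 151 in siNT and 417 in OP449, a difference of 1.66 [1.11, 2.29]. VCAM1 stood at 130, 47.5 and 146 in siSET, siCIP2A and siNT. The membrane chemokine CX3CL1 (226, 77.3 and 209) and TNFSF9, the ligand of 4-1BB (139, 53 and 115), followed the same order of siSET above siCIP2A. For these 4 genes siSET was close to siNT and siCIP2A was low.

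The IL1A promoter is shown because IL1A is the gene of this group with the largest difference and holds the AP-1 letters TGACTCA, found 2 times in the second of its RefSeq promoters, chr2:112784401-112784650 on the minus strand of GRCh38.p14. Capitals mark them on either strand.
IL1A: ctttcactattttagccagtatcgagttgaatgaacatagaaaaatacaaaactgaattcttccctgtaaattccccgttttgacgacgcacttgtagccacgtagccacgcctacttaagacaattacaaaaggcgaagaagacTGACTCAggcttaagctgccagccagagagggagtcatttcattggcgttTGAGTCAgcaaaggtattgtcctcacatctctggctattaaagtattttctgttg
TGACTCA was present in 6 of 42 genes with a promoter among those at least 2-fold lower in siSET (14.3%) and in 2 of 40 among those higher (5.0%). It was present in 5.19% of all genes of the promoter table and in 4.28% of those past the floor. IL1RN was also among the 6. The counts are small.

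ID3 stood apart among BMP genes. ID proteins block basic helix-loop-helix transcription factors, and the ID genes are direct transcriptional targets of BMP signalling. ID3, at chr1:23884410-23886322, stood at 339 scaled counts in siSET and 68.5 in siCIP2A, with 93.6 in siNT, 244 in PBS and 184 in OP449. siSET was the highest of the 5 and siCIP2A the lowest, and the controls siNT and PBS lay far apart between them. The difference was 2.29 [1.89, 2.74]. ATOH8, a transcription factor that responds to BMP, stood at 75.3 and 36.4, with 24.9 in siNT and 121 in PBS, and missed 2-fold with a pseudocount of 10. NOG, which encodes the BMP antagonist noggin, was lower in siSET, at 462 against 786 (-0.77), with 1379 in siNT. FSTL3, an activin antagonist, and GDF15, a stress-induced ligand, were lower as well, at -0.73 and -0.93. Of the 14 BMP genes past the floor, 5 were higher and 9 lower, with a median of -0.07 and a mean of 0.10, of opposite sign.

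**Figure D4:**
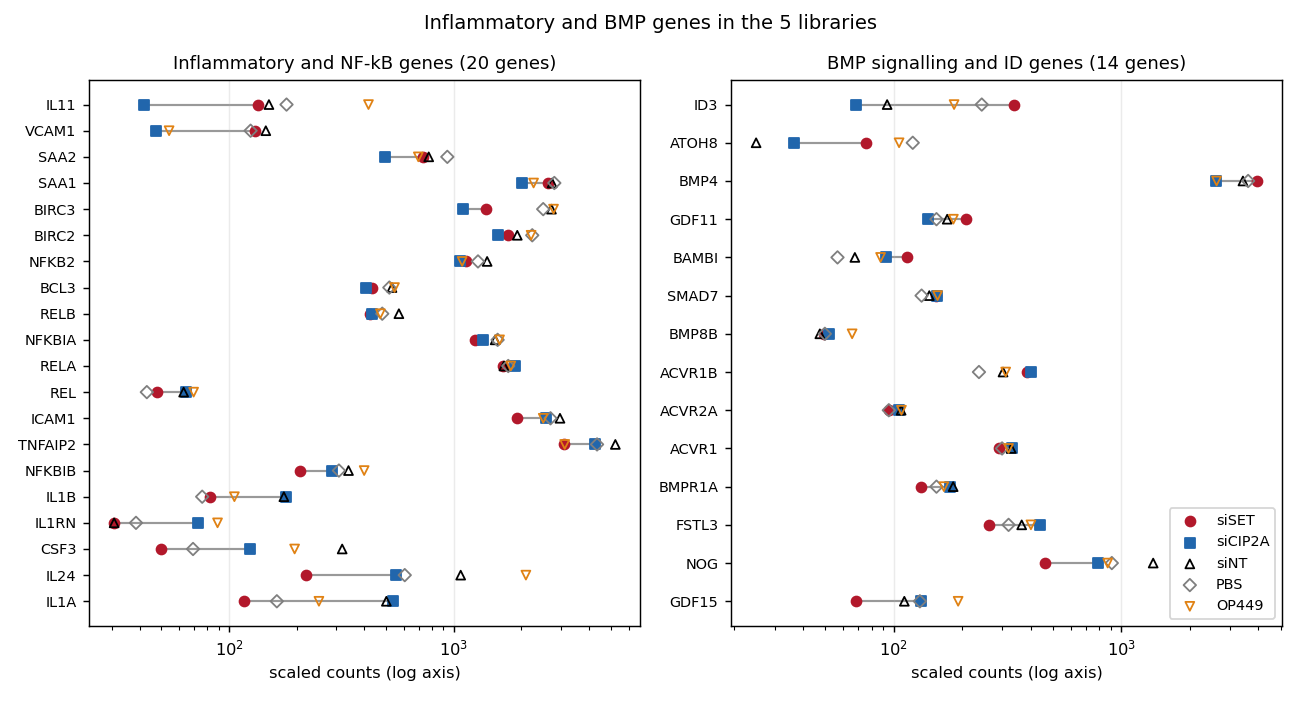
Scaled counts (log axis) of the 20 inflammatory and 14 BMP genes past the floor in the 5 libraries, 1 symbol per library, ordered by the difference between siSET and siCIP2A. IL11 and VCAM1 head the left panel and IL1A closes it; ID3 heads the right panel with siSET at its right end.

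TGFB2, a ligand of the TGF-beta receptors, stood at 2747 in siSET, 1214 in siCIP2A and 2280 in siNT, 2.26-fold higher in siSET. Of 17 genes that TGF-beta controls or that handle its ligands, 11 were higher and 6 lower, with a median of 0.11, and ANGPTL4 and IL11 are also on this list. Thrombospondin 1 (THBS1), which activates latent TGF-beta, was 1.76-fold higher, at 20536 against 11644, with 23088 in siNT. Among 23 matrix genes, 13 were higher and 10 lower. Matrilin 3 (MATN3) was the only one past 2-fold, at 94.1 in siSET, 40.9 in siCIP2A and 28.4 in siNT. COL17A1, a collagen that anchors epithelial cells to the basement membrane, was lower in siSET, at 269 against 497 (-0.89). DSEL, an enzyme that modifies dermatan sulfate, was 2.72-fold higher, at 275 against 100.5, with 134 in siNT.

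Myoferlin (MYOF), a ferlin of the plasma membrane that takes part in membrane repair and receptor recycling, lies at chr10:95066187-95242074. It stood at 2270 scaled counts in siSET and 8996 in siCIP2A, with 7779 in siNT, 7224 in PBS and 6713 in OP449. siSET alone was low, and the other 4 libraries were within 1.5-fold of each other. The difference was -1.99 [-2.07, -1.90]. Of the 21 membrane repair genes past the floor, 8 were higher and 13 lower, with a median of -0.06, and the lowest after MYOF was CHMP4A at -0.80. AHNAK2, a giant scaffold protein, stood at 1463, 4814 and 2261 in siSET, siCIP2A and siNT, and here siCIP2A was the highest of the 5 libraries.

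Connexins form the channels of gap junctions. GJB2 stood at 234 in siSET, 496 in siCIP2A and 505 in siNT (-1.08), and GJA3 at 161, 223 and 165 (-0.47). Both were named after their values were seen. C14orf49, now SYNE3, which encodes a nesprin of the nuclear envelope, stood at 35.9 and 121, a difference of -1.73. Epithelial genes were split. Of 23 keratin and junction genes past the floor, 12 were higher and 11 lower, with a median of 0.04. Claudin 7 (CLDN7) was at -0.96. KRT81 was higher by 0.82, and its reads may be shared with the near-identical hair keratins. Of 27 adhesion molecules, 14 were higher and 13 lower, with the tetraspanin CD82 at 0.92 and ICAM5 at -0.92.

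Metallothioneins, small proteins that bind zinc and copper, were lower in siSET. MT1X at chr16:56716382-56718107 stood at 258 in siSET, 622 in siCIP2A, 191 in siNT, 287 in PBS and 347 in OP449, a difference of -1.26 [-1.54, -1.01]. MT2A stood at 2835, 5116 and 3109 in siSET, siCIP2A and siNT, and MT1E at 1044, 1730 and 864. For all 3 genes siCIP2A was the highest of the 5 libraries, and siSET was nearer siNT than siCIP2A. MTF1, which encodes the zinc-sensing factor that switches these genes on, was also lower, at 320 against 547 (-0.77). The zinc exporters SLC30A1 and SLC30A6 were higher in siSET, by 0.42 and 0.71. Of the 8 genes of this list past the floor, 3 were higher and 5 lower, with a median of -0.44. That median was -0.73 with a floor of 20, -0.74 with any trend on transcript length and GC subtracted (chosen after seeing the data), and -0.07 with no floor. Metallothionein genes are near-identical, so reads may be shared between them and the single values are uncertain.

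The promoters of MT1X and MT2A are shown because metal response elements, whose core has the letters TGCACNC or TGCGCNC, lie close to their starts. The windows are chr16:56682220-56682469 and chr16:56608334-56608583, both on the plus strand of GRCh38.p14, and capitals mark either core on either strand, 4 times in MT1X and 7 times in MT2A.
MT1X: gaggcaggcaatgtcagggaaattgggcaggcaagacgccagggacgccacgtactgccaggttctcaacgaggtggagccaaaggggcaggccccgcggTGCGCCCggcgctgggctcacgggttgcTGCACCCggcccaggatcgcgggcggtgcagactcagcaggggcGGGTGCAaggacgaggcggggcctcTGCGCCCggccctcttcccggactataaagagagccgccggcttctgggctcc
MT2A: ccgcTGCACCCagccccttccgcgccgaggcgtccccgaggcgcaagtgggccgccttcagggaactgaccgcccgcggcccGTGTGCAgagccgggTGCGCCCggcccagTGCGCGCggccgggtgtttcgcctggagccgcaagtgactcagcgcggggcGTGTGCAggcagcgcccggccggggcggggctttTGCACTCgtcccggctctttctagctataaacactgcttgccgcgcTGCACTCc
The core with A was present in 4 of 7 genes of the zinc list with a promoter, in 11.9% of all genes and in 12.6% of those past the floor. The core with G was present in 3 of 7 (42.9%), in 19.7% of all genes and in 32.6% of those past the floor.

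CYP1A1, the classic target of the aryl hydrocarbon receptor, stood at 41.1 in siSET, 121 in siCIP2A, 58.1 in siNT, 19.3 in PBS and 451 in OP449, a difference of -1.54 [-2.27, -0.92]. The receptor's partner ARNT was lower as well (-0.57), but NQO1 (0.63) and SLC7A5 (0.51) were higher, and 3 of the 6 genes of this list went each way. NQO1 reduces quinones and is also a target of NRF2, the sensor of oxidative stress. Of 21 NRF2 and oxidative stress genes, 16 were higher in siSET, 13 with an interval above 0, and 5 lower, 4 with an interval below 0. Their median was 0.17, and none reached 2-fold. Of all genes past the floor, 48.6% were higher, with 20.1% of intervals above 0 and 21.4% below. AKR1C3 (0.84), EPHX1 (0.67) and GSTM2 (0.77) were the other leading members, and reads of AKR1C3 and GSTM2 may be shared with their close paralogs.

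The study's title names MYC. Of 30 MYC-induced genes past the floor, 13 were higher and 17 lower, with a median of -0.02, near that of all genes. ODC1, the rate-limiting enzyme of polyamine synthesis and a direct MYC target, was the exception past 2-fold. At chr2:10580508-10588453 it stood at 2590 in siSET, 1248 in siCIP2A, 2726 in siNT, 2319 in PBS and 3390 in OP449, so siCIP2A alone was low. Its difference was 1.05 [0.94, 1.17]. The antizyme OAZ1, which restrains ODC1, was higher by 0.35, and OAZ3 was lower by 0.63 on the log2 scale. Of 13 polyamine genes 8 were higher and 5 lower. TMEM97, a sterol-responsive gene also on the MYC list, was at 0.89. Of 12 genes of the MAX network and its relatives, 3 were higher and 9 lower, with a median of -0.06.

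Genes of ribosome assembly leaned to lower levels in siSET. Of 49 nucleolar and ribosome biogenesis genes, 35 were lower, 18 with an interval below 0, and 14 higher, 2 with an interval above 0. Their median was -0.14. The shares over all genes were 51.4% lower, 21.4% with an interval below 0 and 20.1% with an interval above 0. NOC3L, which acts in the maturation of the large ribosomal subunit, was the farthest, at 310 in siSET, 611 in siCIP2A and 500.1 in siNT (-0.98). BMS1 and the helicase DDX21 were at -0.58 and -0.47. None of the 49 was 2-fold apart. The 44 cytosolic ribosomal protein genes had a median of 0.02, with 25 higher and 19 lower. Ribosomal protein genes have many processed copies, and reads may be divided among them.

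Stress genes of protein synthesis showed 1 large difference. PPP1R15A (GADD34) directs a phosphatase to eIF2 alpha and ends the translational arrest of the stress response. It stood at 1305 in siSET, 3613 in siCIP2A, 2328 in siNT, 2156 in PBS and 3249 in OP449, a difference of -1.47 [-1.58, -1.35]. Of 33 genes of ATF4 and the amino acid response, 12 were higher and 21 lower, with a median of -0.12. The tRNA synthetases CARS and YARS were at -0.64 and -0.62, while the transporter SLC7A1 (0.60) and the factor ATF5 (0.64) were higher. Of 15 endoplasmic reticulum genes, 10 were higher and 5 lower, PPP1R15A and the sensor ATF6 (-0.74) being the lowest, and none was 2-fold higher. The 12 heat shock chaperones had a median of 0.09.

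ERK output and immediate early genes were mostly lower in siSET. Many of these genes respond to kinases that PP2A opposes, but kinase activity was not measured here. Of 16 ERK output and feedback genes, 13 were lower, 10 with an interval below 0, and 3 higher, with a median of -0.23. For this list and the next, the shares over all genes were 51.4% lower and 21.4% with an interval below 0. PTPRR, a tyrosine phosphatase that inactivates ERK, stood at 32.5 in siSET, 116 in siCIP2A and 35.6 in siNT, so siCIP2A alone of these was high. The difference was -1.80 [-2.62, -1.12]. DUSP6, the ERK phosphatase that reports pathway output, was at 1095 against 1553 (-0.50), with 1357 in siNT, and FOSL1 was at 3608 against 4788 (-0.41). DUSP14 went the other way, at 0.71. Of 15 AP-1 and immediate early genes, 13 were lower, 8 with an interval below 0, and 2 higher, with a median of -0.23. ZFP36L1, which promotes decay of AU-rich RNA, was the farthest at -0.69, and no gene of the list reached 2-fold.

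PP2A subunits and regulators went both ways in their own RNA, and SET relatives and other histone chaperones were mostly lower in siSET. The medians of both lists were small. Of 18 PP2A subunits and regulators, 12 were higher, 7 with an interval above 0, and 6 lower, 4 with an interval below 0. Their median was 0.13, and all lay between -0.50 (the B subunit PPP2R2D) and 0.46 (the striatin STRN3). Of 14 relatives of SET and other histone chaperones, 13 were lower in siSET, 7 with an interval below 0, and 1 was higher. Their median was -0.16. Of all genes past the floor, 51.4% were lower and 21.4% had an interval below 0. SUPT16H, a subunit of the FACT complex that moves RNA polymerase through nucleosomes, stood at 1918 in siSET, 3070 in siCIP2A and 2819 in siNT (-0.68). HMGB1 (-0.45), ANP32E (-0.44), CHAF1A (-0.41) and NAP1L1 (-0.41) followed. ANP32E is also on the PP2A list. Of 27 AKT and mTOR genes, 14 were higher and 13 lower, with MTOR itself at 696 in siSET, 1363 in siCIP2A and 1548 in siNT (-0.97) and PIK3CD at -0.85.

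Mitosis and replication genes leaned slightly to siSET, and G1 genes were split. Of 47 mitosis genes, 34 were higher, 21 with an interval above 0, and 13 lower, 4 with an interval below 0. Their median was 0.13. For all lists of this paragraph, the shares over all genes were 48.6% higher, 20.1% with an interval above 0 and 21.4% below. WEE1, the kinase that holds CDK1 inactive, was at 813 against 542 (0.58), and the anaphase activator CDC20 at 2128 against 1541 (0.46). Of 48 replication and repair genes 34 were higher, 15 with an interval above 0, and 14 lower, 6 with an interval below 0. Their median was 0.08, and the nuclease FEN1 was the highest at 0.54. Of 14 G1 cyclins and CDK inhibitors 8 were higher, 3 with an interval above 0, and 6 lower, 4 with an interval below 0, with a median of 0.05. The inhibitor CDKN1B, which encodes p27, was at 0.54 and cyclin D1 (CCND1) at -0.23. Of 22 p53 target genes 6 were higher and 16 lower, with a median of -0.14. The apoptosome gene APAF1, also on the list of BCL2 family and caspases, stood at 270 in siSET, 537 in siCIP2A and 525 in siNT (-0.99). MCL1, a survival gene of the BCL2 family, stood at 4369 in siSET, 2801 in siCIP2A and 4847 in siNT (0.64).

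Interferon-stimulated genes leaned the same way as mitosis and replication genes. Of 35 past the floor, 27 were higher in siSET, 15 with an interval above 0, and 8 lower, 3 with an interval below 0. The median was 0.11 and none of these 35 was 2-fold apart. Of all genes past the floor, 48.6% were higher, with 20.1% of intervals above 0 and 21.4% below. GBP4, an interferon-induced gene that the list left out, was picked out after its values were seen. It stood at 106 in siSET, 43.1 in siCIP2A and 91.3 in siNT, a difference of 1.28 [0.70, 1.92]. IFIT1, which binds viral RNA, stood at 546 in siSET, 295 in siCIP2A and 520 in siNT (0.89), and IFITM1, IFI44, IRF9 and OASL were between 0.72 and 0.87. Of 12 genes of the RNA interference machinery, which siRNAs use, 4 were higher and 8 lower, with a median of -0.05.

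**Figure D5:**
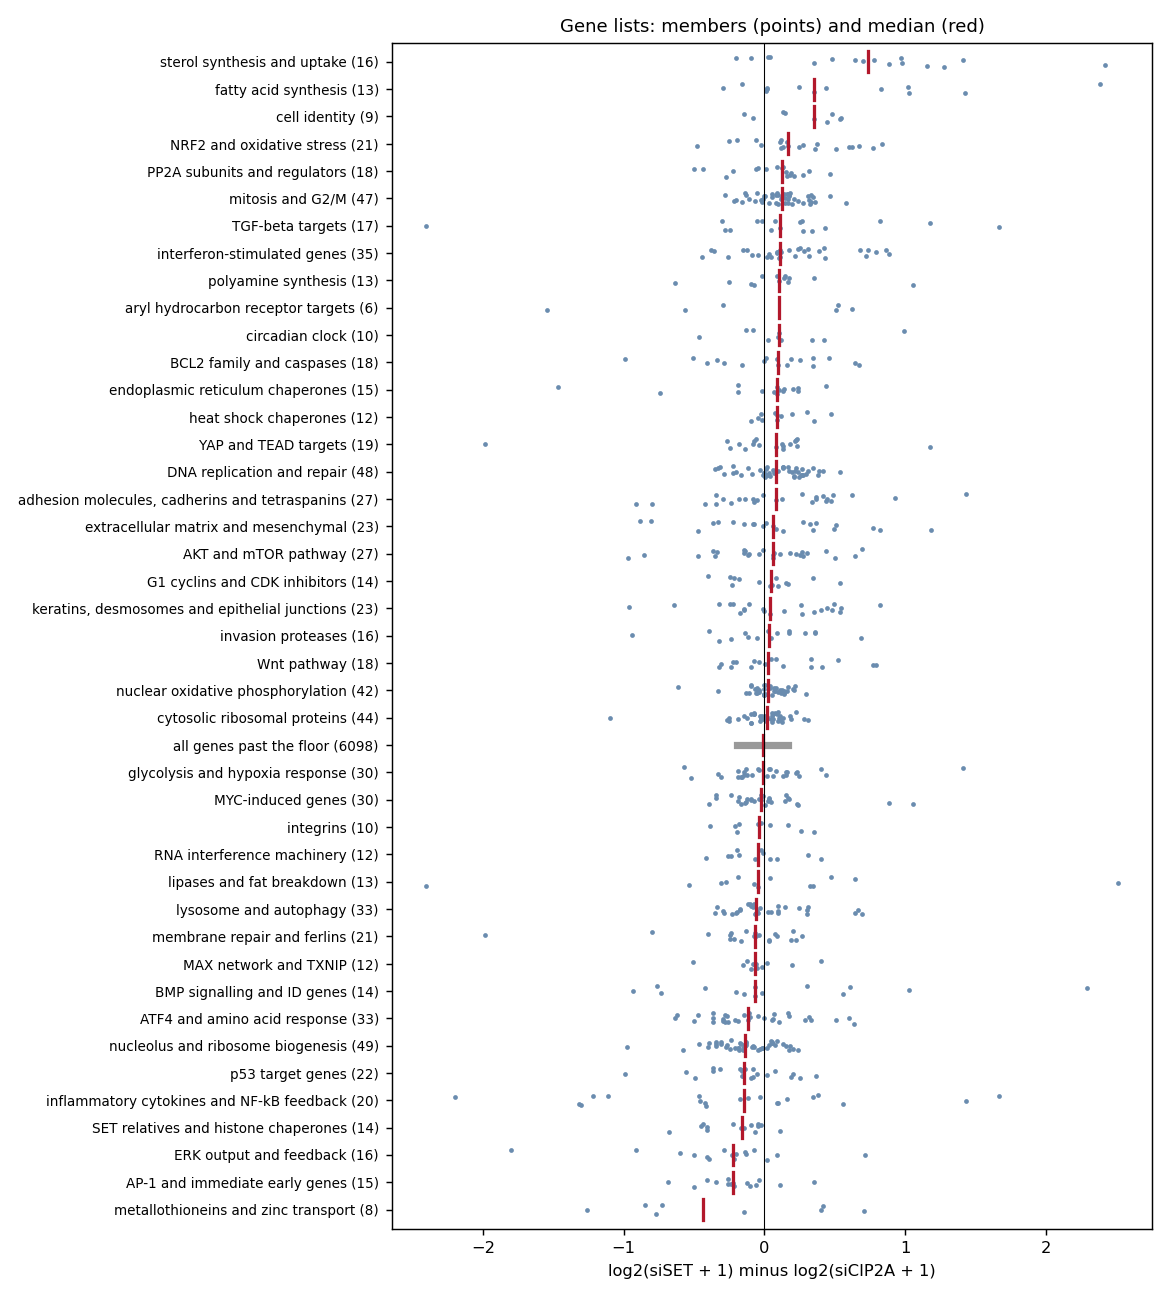
Difference between siSET and siCIP2A (log2) for each list with at least 3 genes past the floor; points are genes, red bars medians, and the number of genes is in brackets. The grey bar is the span from the first to the third quartile of all 6098 genes; the sterol list, with a median of 0.74, lies highest, the fatty acid and identity marker lists follow at 0.35, and the metallothionein list, whose median moves with the floor, lies lowest.

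Several of the genes farthest apart belong to no list. NNMT, which methylates nicotinamide, stood at 205 in siSET, 76.2 in siCIP2A and 113 in siNT. KBTBD7, an adaptor of a ubiquitin ligase, stood at 87.2, 34.2 and 45.0. Both were higher in siSET than in the other siRNA libraries. Below siCIP2A in siSET were SHISA2, which retains Wnt and FGF receptors in the cell (151, 428 and 420), and GCKR, the glucokinase regulator (37.6, 108 and 52.1). FAM96A, now CIAO2A, of iron-sulfur protein assembly, stood at 180, 496 and 450, and KIAA0494, now EFCAB14, at 643, 1855 and 1570. For SHISA2, FAM96A and KIAA0494 siCIP2A was near siNT and siSET was low. TMEM45B (41.1, 110 and 205) and the calcium-binding copine CPNE7 (71.8, 191 and 135) were lower in siSET than in both other siRNA libraries.

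Further genes past 2-fold, picked out after their values were seen, have well-known roles. KIAA1199, now CEMIP, which degrades hyaluronan, stood at 5334 in siSET, 2479 in siCIP2A and 3647 in siNT. CBFB, the partner of RUNX transcription factors, stood at 814, 342 and 604, and EED, a core subunit of the Polycomb complex PRC2, at 529, 257 and 448. For both siCIP2A was the lowest of the 5 libraries. EIF5B, which joins the ribosomal subunits at the start codon, stood at 1664, 3713 and 3365, and siSET was the lowest of the 5. TNFRSF11A, which encodes the receptor RANK, stood at 65.0, 167 and 126, and ALOX5, which starts leukotriene synthesis, at 106, 271 and 216. The exchange factor DOCK9 stood at 1969, 4682 and 2819, and TP53BP2, which encodes the p53 partner ASPP2, at 587, 1243 and 968.

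The medians of other processes lay near that of all genes, which does not mean that their members were unchanged. Oxidative phosphorylation (42 genes, median 0.02), glycolysis and hypoxia (30 genes, -0.01), lysosome and autophagy (33 genes, -0.06), integrins (10 genes, -0.04), invasion proteases (16 genes, 0.04), the Wnt pathway (18 genes, 0.03) and YAP targets (19 genes, 0.09) had medians within 0.1 of 0. Among the 30 glycolysis and hypoxia genes, 11 intervals lay above 0 and 13 below. Among the 16 invasion proteases 8 lay above and 4 below. The shares over all genes were 20.1% above and 21.4% below. The YAP list held TGFB2 at 1.18 and MYOF at -1.99. Other single members stood out as well. ALDOC, a glycolytic aldolase, stood at 277 in siSET, 104 in siCIP2A and 180 in siNT (1.41). The sheddase genes ADAM12 and ADAM10 were at -0.94 and 0.69. DKK1, a secreted Wnt inhibitor, was at 0.77 and RNF43, which removes Wnt receptors, at 0.79. Of 10 clock genes 7 were higher and 3 lower, PER3 being the farthest at 0.99.

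Each siRNA can lower other transcripts through the short seed at the start of its guide strand, and a difference between siRNAs holds the seed effects of both. No source used here gives the siRNA sequences, so seed matches were not tested, and the part of SET, of CIP2A and of other transcripts in these differences cannot be told apart.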

How the data were processed

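The values are a signal per RefSeq transcript deposited by the authors for 5 libraries, 1 per group, already scaled to each other; the submitters' processing notes name hg19, CASAVA and Bowtie 1.0.0, and no source used here names the program that counted reads, whether strand was used, or how values were scaled. Without known strand use, overlapping and antisense genes cannot be separated. RNA was primed with oligo-dT and sequenced on an Illumina GAII, per the labels' protocols. In each library 100% of the deposited signal values were whole multiples of the smallest, within 0.001 reads, so reads were recovered. The table held 16383 transcript rows; 15 symbols turned into dates were restored, and 15739 accessions matched a current symbol.

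Differences were log2(value + 1), which understates low genes, with a floor of 50 on the mean of both libraries and a threshold of 2-fold. A two-sided exact binomial test per gene on recovered reads, with Benjamini-Hochberg adjusted values under 0.05 and comparing libraries only, gave 2073 of 6098 genes, 1000 higher and 1073 lower. The calculation recovered known folds, all set past the 2-fold threshold, in simulated data that held counting error only. Python 3.11.15, pandas 2.3.3, scipy 1.17.1 and, for TMM, edgeR 4.0.16 in R 4.3.3 were used.

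Lists (43, of which 42 had at least 3 genes past the floor) and members were chosen with earlier results of these data known. Named genes were the 15 highest, the 15 lowest and up to 5 per list with the largest difference; IL1B, IL1RN, IL1R1, GJB2, GJA3, FADS3, GGPS1, NPC1, SLC30A1, the genes at the threshold and those so described in the text were named after their values were seen. Some genes that the rule selects are not reported here, nor drawn by name, but stay in the counts and medians. Promoters came from RefSeq (GRCh38.p14): 5208 of 6096 symbols past the floor matched. Coordinates of transcripts are on hg19, counted from 1.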

Additional observations from a re-analysis of the deposited data

How the results depend on the processing

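No paired analysis was possible because there was 1 library per group and the labels give no replicate number. The 50 higher and 52 lower genes became 23 and 24 with a floor of 200, 424 and 548 without a floor, 241 and 267 at a threshold of 1.5-fold, and 85 and 96 with every transcript counted. A floor of 20 gave 74 and 83. These settings change how many genes or transcripts are compared or how far apart they must be. The counts moved by less than 1.5 times with a pseudocount of 10 (40 and 46), under 4 other scalings (44 to 52 higher and 52 to 55 lower), with the binomial test or the interval added (50 and 52 each), and, chosen after seeing the data, after fitting and subtracting any trend on transcript length and GC (49 and 49 of 5894 genes). The test and the interval use the same reads that chose the genes, so their unchanged counts are no separate check. Of 42 named genes past 2-fold, ATOH8 was lost with a pseudocount of 10 and FASN and FADS1 with equal upper quartiles. No named gene changed direction. The scalings shifted all differences by -0.01 to 0.03. The median of the metallothionein and zinc list, -0.44, went to -0.73 with a floor of 20, -0.74 with that trend subtracted, -0.07 with no floor and, as a mean, -0.28. List medians near 0 changed sign in some settings: 9 lists without a floor and 9 when means replaced medians, among them the BMP and lipase lists. Depth in siSET limits the low genes: 50 scaled counts are 29.2 reads there and 45.3 in siCIP2A.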

Other observations

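The PBS and OP449 libraries, treated for 12 hours, lie outside the ratio. For the 50 genes higher in siSET, OP449 lay between siSET and siCIP2A for 38, above both for 6 and below both for 6. For the 52 lower genes it lay between for 36, above both for 14 and below both for 2. As with siNT, the wide gap that chose these genes favours a place between, and the share over all genes was not counted. CYP1A1 reached 451 scaled counts in OP449, ANGPTL4 165, IL24 2095 and SHISA2 826, each above both siRNA libraries. LGALS12, the gene with the highest difference, was at 3.86 in OP449, which is the level of 3 reads.

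The complement proteases C1R and C1S, which start the classical pathway and lie side by side on chromosome 12, were both at least 2-fold higher in siSET, and were picked out after their values were seen. C1R stood at 245 in siSET, 116 in siCIP2A and 184 in siNT, and C1S at 142, 60.7 and 88.9. Their neighbour C1RL was higher by 0.56 on the log2 scale. The subunits of C1q, which these proteases join, were at 0 in all libraries.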
